A study of Mus musculus with 2 samples.

Results

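The metallothionein genes Mt1 and Mt2, their regulator Mtf1 and 5 zinc transporter genes (Slc30a1, Slc30a10, Slc39a4, Slc39a14 and Slc39a8) were followed in the liver transcriptome of mice with and without Pgrmc1. These 8 of the 24054 genes in the deposited TPM table were chosen by symbol after their KO and WT levels were known, so the rises of Mt1 and Mt2 are given as a description and support nothing further. All 8 were listed, and all 8 had a mean of at least 1 TPM over the libraries. The KO group was male C57BL/6 mice of genotype Pgrmc1 -/Y, and the WT group was male C57BL/6 mice, both 8 to 12 weeks old, with no treatment named. The KO is a whole-body one: mice with floxed exons 1 and 2, made from C57BL/6N embryonic stem cells, were crossed to mice with Cre driven by Sox2. Liver RNA of 5 mice of each genotype was pooled in equal masses (2.5 μg per mouse) before library preparation, which left 1 library per genotype. The spread between mice was therefore not measured, no test between genotypes was possible, and a difference can come from 1 mouse of the pool as well as from all. The libraries held an estimated 22086707 (KO) and 29710376 (WT) reads on genes.

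Pgrmc1 itself followed the labels, with 0.68 TPM in the KO library and 949.49 in the WT library (log2 change -9.14). TPM is a share of the transcript pool per length of transcript, so levels of different genes can be compared within a library. Changes are the log2 of KO TPM + 1 over WT TPM + 1, which makes the change of low genes look smaller than it is. The 95% intervals are exact and rest on estimated reads, so they cover the error of counting and nothing else. An interval given with a change is that of the log2 ratio of the authors' means. These means are estimated reads over a size factor, so that ratio can differ a little from the change printed beside it.

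Metallothioneins are small cysteine-rich proteins that bind and buffer zinc and copper, and in liver their transcripts are known to rise with zinc, glucocorticoids, interleukin 6 (IL-6) and oxidative stress. The zinc finger protein Mtf1 senses free zinc and binds metal response elements upstream of Mt1, Mt2 and Slc30a1. Zinc leaves the cytosol through exporters of the Slc30 (ZnT) family and enters it through importers of the Slc39 (ZIP) family, and some members of both families also carry manganese or iron.

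The coding sequences of Mt1 and Mt2 show how alike the 2 genes are, which bears on how reads can be told apart between them. They were read from GENCODE transcripts on GRCm38 (the mm10 assembly), on the plus strand, from start to stop codon, and lie in 3 coding exons at chr8:94179311-94180193 (Mt1) and chr8:94172848-94173427 (Mt2). Capitals mark the cysteine codons.
Mt1: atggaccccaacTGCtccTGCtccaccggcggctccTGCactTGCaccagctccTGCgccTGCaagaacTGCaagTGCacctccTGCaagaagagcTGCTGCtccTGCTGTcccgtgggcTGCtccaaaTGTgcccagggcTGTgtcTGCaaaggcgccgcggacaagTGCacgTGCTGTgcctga
Mt2: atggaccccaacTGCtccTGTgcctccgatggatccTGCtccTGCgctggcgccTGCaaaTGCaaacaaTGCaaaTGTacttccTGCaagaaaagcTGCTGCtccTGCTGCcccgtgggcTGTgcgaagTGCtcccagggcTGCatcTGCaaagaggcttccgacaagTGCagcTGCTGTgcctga
Each gene has 61 codons before the stop, 20 of them for cysteine, and all 20 cysteine positions are shared. The coding sequences are identical at 145 of 183 bases (79.2%), with 28 differing codons. The longest run shared by the Mt1 and Mt2 transcripts (549 and 511 bases) is 20 bases, shorter than a read, and no 100-base window of Mt1 occurs in another gene. Of the 100-base windows of Mt2, 22.4% lie in Gm45774, a gene annotated on the opposite strand over an Mt2 exon and not listed in the TPM table. The library kit keeps strand.

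The windows of Mt2 and of the manganese exporter Slc30a10 are printed because they hold the most metal response element cores of the members' windows. Of Mt1, only short stretches around single cores are printed, further below. Whether the cores bear on the levels of these genes was not tested. Cores of the metal response element were searched as TGCACNC and TGCGCNC on both strands in the 250 bases before the RefSeq start (GRCm38.p6), which 6 of the 8 genes have in the promoter table. Capitals mark the matches. A match on the other strand reads GNGTGCA or GNGCGCA here.
Mt2, chr8:94172368-94172617, plus strand: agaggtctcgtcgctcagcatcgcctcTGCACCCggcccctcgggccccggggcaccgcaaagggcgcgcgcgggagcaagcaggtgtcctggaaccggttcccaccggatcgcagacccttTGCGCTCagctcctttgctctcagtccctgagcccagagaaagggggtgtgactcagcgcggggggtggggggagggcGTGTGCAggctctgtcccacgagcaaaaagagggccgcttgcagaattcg
Slc30a10, chr1:185454598-185454847, plus strand: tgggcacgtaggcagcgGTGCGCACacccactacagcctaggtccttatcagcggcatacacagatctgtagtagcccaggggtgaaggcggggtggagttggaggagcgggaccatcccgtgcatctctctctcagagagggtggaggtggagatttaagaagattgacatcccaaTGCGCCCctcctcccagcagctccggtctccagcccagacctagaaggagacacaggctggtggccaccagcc
The Mt2 window holds 3 cores. The Slc30a10 window also holds 3, of which 2 overlap on opposite strands. The windows of Mt1 and Slc30a1 hold 1 each, that of Mtf1 holds 0, and the 2 windows that the promoter table gives for Slc39a8 hold 0 and 1. The starts used are those of the promoter table, and for Mt1, Slc30a1 and Slc39a8 the gene as annotated begins further upstream than these starts. Among all 32851 RefSeq windows of this length, 21.4% hold at least 1 core, 5.17% at least 2 and 1.26% at least 3, so a single match is common. The STAT word TTCNNNGAA, searched in the same way, occurs in none of the members' windows and in 7.02% of all windows. Slc39a4 and Slc39a14 have no window, and bases further upstream were not searched. As the word is rare in all windows, nothing is read from its absence here.

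Transcription of Mt1 and Mt2 is annotated from more than 1 start, and further cores lie between the RefSeq start and the start codon. From the window's first base to the start codon, Mt1 has 5 cores in 472 bases, at 245, 220, 202, 138 and 124 bases before the start codon. Mt2 has 7 cores in 480 bases, at 453, 358, 280, 226, 172, 153 and 119 bases before it. These longer stretches were searched for Mt1 and Mt2 only. Their counts therefore cannot be set beside those of the other members' 250-base windows. Of the 300-base windows that also take in 50 bases after the start, the Mt1 window holds 3 cores and the Mt2 window 4, against at least 3 cores in 1.97% and at least 4 in 0.517% of all such windows. The core farthest from and the core nearest to the start codon of Mt1, and the nearest of Mt2, read as follows with the surrounding bases, capitals marking the core.
Mt1, chr8:94179057-94179081: gtcccgctgTGCACACtggcgctcc
Mt1, chr8:94179178-94179202: caaacccttTGCGCCCggactcgtc
Mt2, chr8:94172720-94172744: cggagctttTGCGCTCgacccaata
These matches are a description of letters and not of bound sites.

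**Figure D1:**
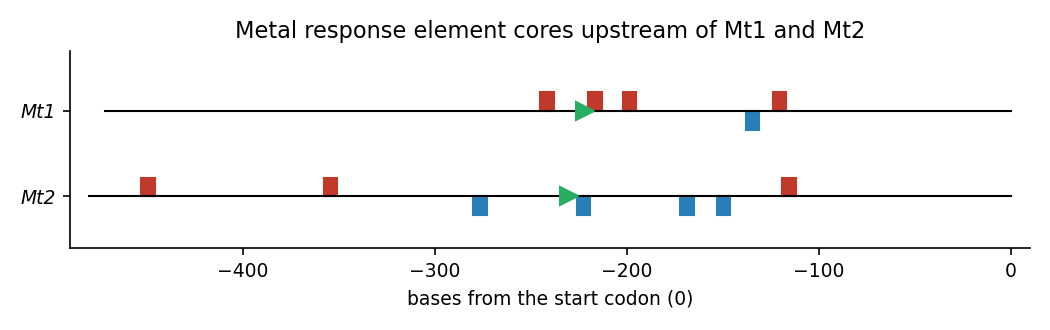
Metal response element cores of Mt1 and Mt2 by distance before the start codon (x axis, bases). Each block is a 7-base core, red on the gene's strand and blue on the other strand, and the green arrow marks the RefSeq start. Mt1 has 5 cores, all within 245 bases of the start codon, and Mt2 has 7, spread over 453 bases.

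Of the 8 genes, 2 were higher in the KO library by the fold used here (at least 1.4), 0 were lower (fold of at most 0.6), and 6 were neither. Over all 11623 genes averaging at least 1 TPM, 1.21% were higher and 0.301% lower by these rules. The 2 members past the fold, Mt1 and Mt2, are those whose rise was known when the genes were picked, so nothing is read from their share. The median change of the 8 genes was -0.01, and that of all genes was also -0.01. Of the 6235 genes averaging at least 10 TPM, the 5th and 95th percentiles of change were -0.25 and 0.20.

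Mt1 (Entrez gene 17748; chr8:94178883-94180327), the more abundant metallothionein of these livers, stood at 159.49 TPM in KO (95% interval 149 to 171) against 81.28 in WT (74.7 to 88.3). The intervals of the levels did not overlap. The log2 change was 0.96, a fold of 1.95, and the log2 ratio of the authors' means (966.93 and 480.14) had an interval of 0.85 to 1.17 on 832 and 558 estimated reads. Among the 6235 genes averaging at least 10 TPM, this change was the 36th highest.

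Mt2 (Entrez gene 17750; chr8:94172618-94173567), which encodes the other main liver isoform, stood at 55.90 TPM in KO (49.8 to 62.6) against 20.86 in WT (17.6 to 24.5). Its levels too were apart by more than counting error. The log2 change was 1.38, a fold of 2.60, and the log2 ratio of the authors' means (350.98 and 127.35) had an interval of 1.17 to 1.76 on 302 and 148 reads. It ranked 23rd among the same genes.

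Mt1 and Mt2 lie 5315 bases apart, in the same orientation. Summed, they took 215.4 TPM in KO against 102.1 in WT, a log2 change of 1.07 (0.98 to 1.25) and a fold of 2.10. Mt2 changed by more than Mt1: its level was 35.0% of that of Mt1 in KO and 25.7% in WT. From reads, the log2 change of Mt2 exceeded that of Mt1 by 0.45 (exact conditional interval 0.12 to 0.79), which is a difference between these libraries and not one measured over mice. The remaining metallothionein genes on this chromosome, Mt3 (0.19 TPM in KO against 0.15 in WT) and Mt4 (0.32 and 0.25 TPM), were below 1 TPM in both libraries. The authors give no mean for Mt3 or Mt4, so no read estimate backs these values and no direction is read from them. Other genes within 150 kb, named after their values were seen, changed less: Nudt21 by -0.08, Ogfod1 by 0.10, Bbs2 by 0.18 and Nup93 by -0.03 on the log2 scale.

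**Figure D2:**
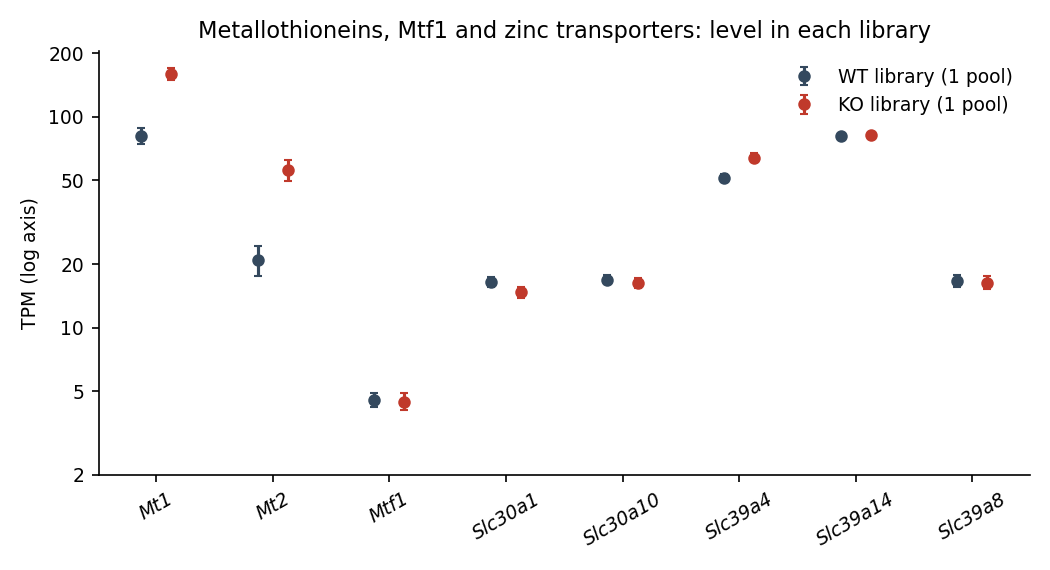
TPM of the 8 genes (y axis, log scale) in the pooled KO and WT libraries, with exact 95% Poisson intervals from estimated reads as bars. The intervals of KO and WT do not overlap for Mt1, Mt2 and Slc39a4 and barely miss each other for Slc30a1, and the points of Mtf1, Slc30a10, Slc39a14 and Slc39a8 lie within each other's intervals.

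Mtf1 (Entrez gene 17764; chr4:124802549-124849800), the zinc-sensing activator of the metallothionein genes, was the least abundant of the 8, at 4.45 TPM in KO against 4.54 in WT. The log2 change was -0.02, and the log2 ratio of means had an interval of -0.19 to 0.16 on 468 and 639 reads. The part of Mtf1 in the levels of Mt1 and Mt2 was not tested. Of the 100-base windows of Mtf1, 6.99% are shared with 1110065P20Rik on the opposite strand (24.26 TPM in KO against 21.56 in WT).

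The exporters were level or slightly lower in KO. Slc30a1 (ZnT1; Entrez gene 22782; chr1:191906697-191913248), the plasma membrane zinc exporter and itself a known Mtf1 target, stood at 14.70 TPM in KO against 16.45 in WT. Its log2 change was -0.15, and the interval of -0.27 to -0.04 for the log2 ratio of means left out 0 (1048 and 1573 reads). The part of zinc or Mtf1 in the level of Slc30a1 was not tested. Slc30a10 (Entrez gene 226781; chr1:185454848-185468762), the cell surface manganese exporter, stood at 16.27 and 16.88 TPM, a log2 change of -0.05 (-0.15 to 0.06). Both genes share about as many windows with a gene on the opposite strand, 7.06% for Slc30a1 and 7.56% for Slc30a10, and those partners were below 1 TPM in both libraries.

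Of the importers, Slc39a4 was higher in KO by less than the fold used, and Slc39a14 and Slc39a8 were level. Slc39a4 (ZIP4; Entrez gene 72027; chr15:76612383-76618506), known for zinc uptake in the intestine, stood at 64.07 TPM in KO (61.2 to 67.1) against 51.47 in WT (49.2 to 53.8). The log2 change was 0.31, a fold of 1.24, with an interval of 0.24 to 0.42 on 1856 and 1994 reads. It ranked 122nd among the genes averaging at least 10 TPM.

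Slc39a14 (ZIP14; Entrez gene 213053; chr14:70303467-70351452) takes zinc, manganese and iron not bound to transferrin into hepatocytes and is known to rise with IL-6. It stood at 81.68 TPM in KO (79.5 to 83.9) against 81.21 in WT (79.4 to 83.1). The log2 change was 0.01. For the log2 ratio of means the interval was -0.03 to 0.07, the narrowest of the 8, on 5473 and 7295 reads. Slc39a8 (ZIP8; Entrez gene 67547; chr3:135816882-135888572), an importer of zinc and manganese, stood at 16.31 and 16.65 TPM, a log2 change of -0.03 (-0.15 to 0.13). No 100-base window of these 3 importers occurs in another gene.

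The order of the levels was nearly the same in both libraries, and the only exchange of places was between Slc30a10 and Slc39a8, whose intervals overlapped in each. In WT, Mt1 and Slc39a14 were level (81.28 and 81.21 TPM), Slc39a4 followed, then Mt2, and Slc30a10, Slc39a8 and Slc30a1 lay between 16.45 and 16.88 TPM with overlapping intervals, the highest of which reached that of Mt2. In KO, Mt1 stood above Slc39a14, and the interval of Mt2 reached that of Slc39a4. Slc39a8, Slc30a10 and Slc30a1 again had overlapping intervals, and Mtf1 was lowest in both libraries. The 6 genes other than Mt1 and Mt2 summed to 197.5 TPM in KO against 187.2 in WT.

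**Figure D3:**
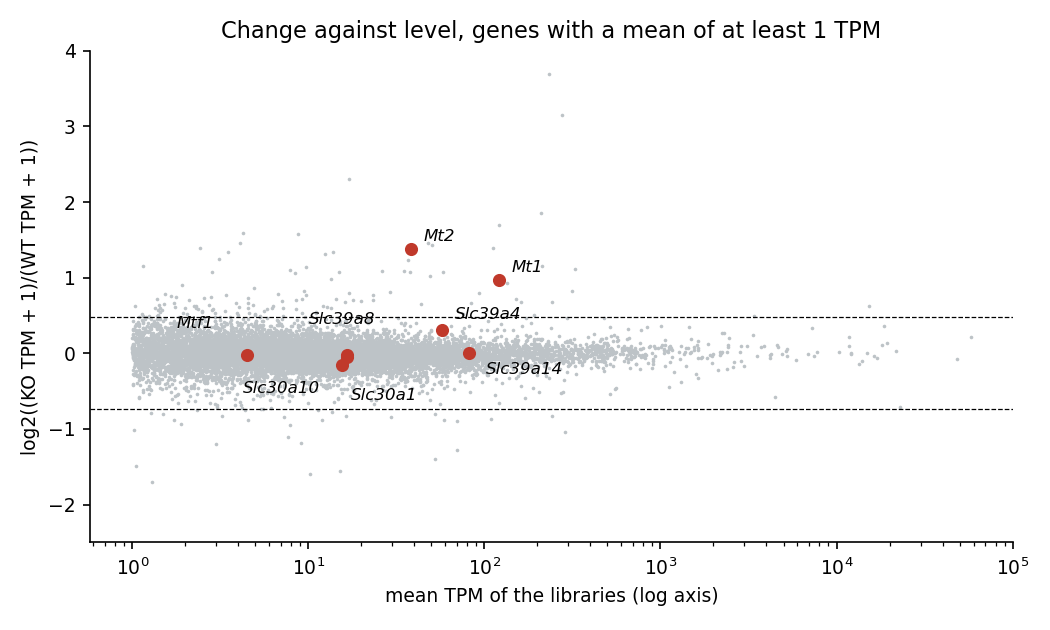
Change of each gene (y axis, log2((KO TPM + 1)/(WT TPM + 1))) against its mean TPM (x axis, log scale) for 11607 genes averaging at least 1 TPM in grey, the 8 genes in red, and dashed lines at folds of 1.4 and 0.6. Mt1 and Mt2 lie above the upper line and the other 6 between the lines. Another 16 genes lie outside the y axis.

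The rest of both transporter families held no gene past the fold. Of all 24 Slc30 and Slc39 genes, 18 had a mean of at least 1 TPM, with 0 higher and 0 lower by the fold rules, 7 changes above 0 and 11 below, and a median of -0.04. Over all genes averaging at least 1 TPM, 53.8% of changes were below 0. The summed TPM of all Slc30 genes was 108.3 in KO and 114.6 in WT, and that of all Slc39 genes 308.3 and 303.4. Slc39a14 made up 26.5% of the Slc39 sum in KO and 26.8% in WT, whereas Slc39a4 made up 20.8% and 17.0%.

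All 5 other exporters averaging at least 1 TPM had changes below 0, from -0.13 for Slc30a6 to -0.03 for Slc30a9, with a median of -0.07. Each of these intervals held 0. They comprised Slc30a5, Slc30a6 and Slc30a7, which load zinc into the early secretory pathway (log2 changes of -0.11, -0.13 and -0.04), the endosomal Slc30a4 (-0.07) and the mitochondrial Slc30a9 (-0.03). Slc30a2, Slc30a3 and Slc30a8 were below 1 TPM.

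Among the 8 other importers averaging at least 1 TPM, 5 changes were above 0 and 3 below, with a median of 0.01. Slc39a7, which releases zinc from the endoplasmic reticulum into the cytosol, had the lowest change of all transporters, at 40.27 TPM in KO against 52.75 in WT (log2 change -0.38, interval -0.47 to -0.27). This was a fold of 0.768 and did not pass the fold rule. Slc39a13, an importer of intracellular vesicles, stood at 4.85 and 3.83 TPM (log2 change 0.28, interval 0.01 to 0.68 on 146 and 155 reads). Slc39a1, a plasma membrane importer, stood at 61.70 and 58.19 TPM (0.08, interval 0.01 to 0.19). Slc39a3 (0.12), Slc39a9 (0.01), Slc39a11 (0.00), Slc39a10 (-0.05) and Slc39a6 (-0.06) had smaller or less precise changes, and Slc39a2, Slc39a5 and Slc39a12 were below 1 TPM.

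**Figure D4:**
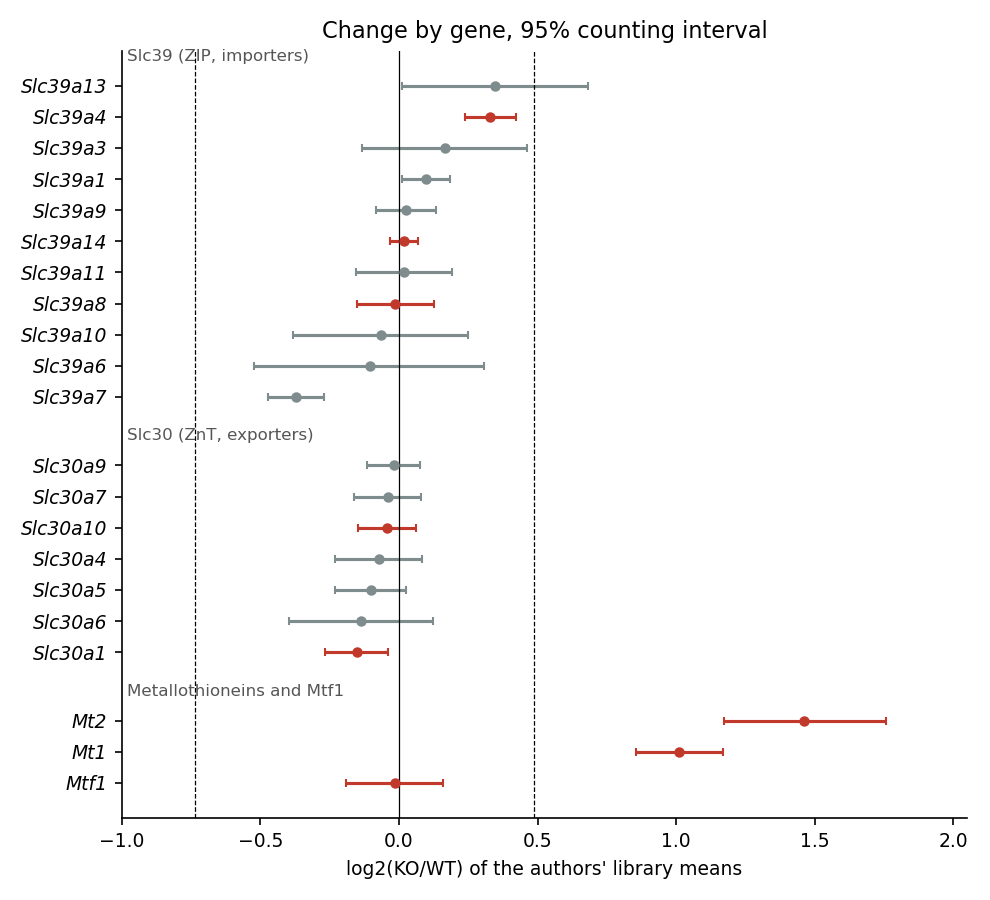
Log2 ratio of the authors' library means, KO over WT (x axis), for the metallothioneins, Mtf1 and each Slc30 and Slc39 gene averaging at least 1 TPM, with exact 95% counting intervals as bars, the 8 genes in red and dashed lines at folds of 1.4 and 0.6. Mt1 and Mt2 lie wholly above the upper line. Slc39a7 lies lowest, at -0.37.

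Gene lists of responses in which metallothioneins are known to take part were compared next. All 10 copper handling genes lay between -0.21 for Atp7b, the copper exporter of hepatocytes, and 0.07 for Sod1, the copper and zinc superoxide dismutase, with a median of -0.03 and 0 past either fold. The 7 genes for manganese and other divalent metals lay between -0.17 for Arg1, the manganese enzyme of the urea cycle, and 0.09 for Slc11a2, an importer of iron and manganese, with a median of -0.08 and 0 past either fold. The 8 oxidative stress genes averaging at least 1 TPM, of 9 listed, lay between -0.25 for Hmox1, which degrades heme, and 0.04 for Nfe2l2, the factor that drives many of them, with a median of -0.02 and 0 past either fold.

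Of 12 glucocorticoid response genes, 10 had changes below 0 (median -0.13), 2 were higher by the fold and 0 lower. Over all genes averaging at least 1 TPM, 53.8% had changes below 0, 1.21% were higher by the fold and 0.301% lower. Sgk1, a kinase, stood at 29.63 TPM in KO against 16.91 in WT (log2 change 0.77). Pdk4, which restrains pyruvate oxidation, stood at 6.43 and 4.26 TPM (0.50). The lowest was Fkbp5, a chaperone of the glucocorticoid receptor, at 34.86 and 50.62 TPM (-0.53).

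Of 13 IL-6 and acute phase genes, 11 had changes above 0 (median 0.31), 5 were higher by the fold and 0 lower. The shares over all genes were 1.21% higher and 0.301% lower. This list was chosen with earlier results of these data known, so nothing is read from its counts. The serum amyloid genes Saa1 and Saa2 had log2 changes of 3.15 and 3.69, Saa3 of 1.08, the orosomucoid gene Orm2 of 2.30 and the iron-sequestering lipocalin Lcn2 of 1.10. Hamp, which encodes the iron hormone hepcidin, was lowest, at 707.87 TPM in KO against 819.37 in WT (-0.21). Stat3, the transcription factor downstream of IL-6, changed by 0.21 and its feedback inhibitor Socs3 by 0.31, both short of the fold. The 5 acute phase genes past the fold were higher in the same library as Mt1 and Mt2, and their part in the levels of the metallothioneins was not tested.

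**Figure D5:**
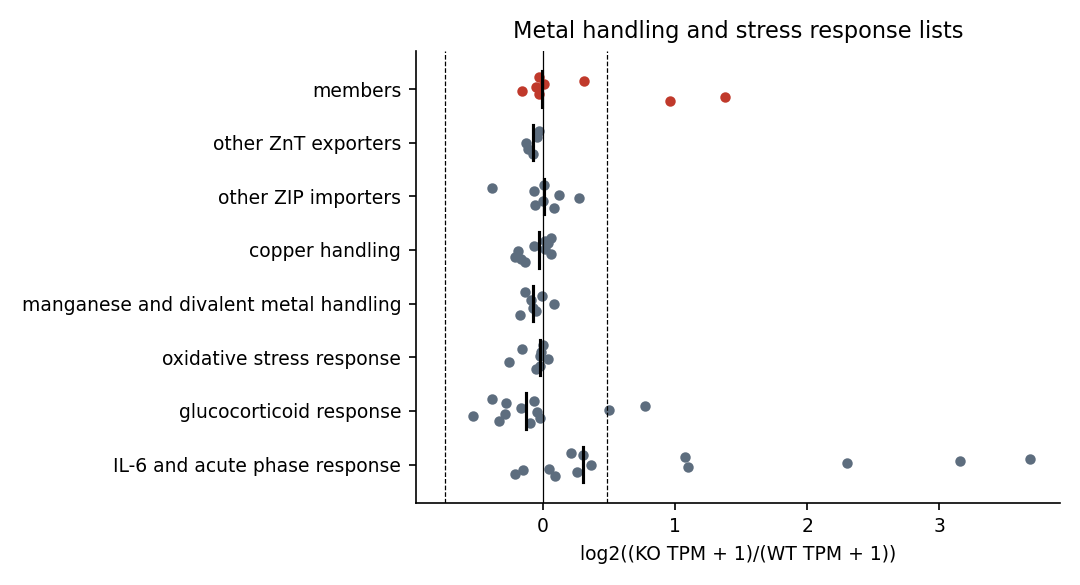
Changes of single genes (points, log2((KO TPM + 1)/(WT TPM + 1)) on the x axis) in each gene list, genes averaging at least 1 TPM, with the list's median as a bar and dashed lines at folds of 1.4 and 0.6. The acute phase list reaches 3.69, and the copper, manganese and oxidative stress lists lie between the lines.

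Markers of liver cell types were compared between the libraries. In RNA of whole liver fewer cells of a type and less RNA per cell cannot be told apart. For comparison, 53.8% of all genes averaging at least 1 TPM had changes below 0. All 8 hepatocyte markers were present, with a summed level of 87179 TPM in KO against 90300 in WT, a median change of -0.06, and extremes at Cps1 (-0.13) and Apob (0.02). All 7 Kupffer cell markers had changes above 0, from 0.10 for Vsig4 to 0.19 for Clec4f, with a median of 0.16 and sums of 222 and 197 TPM. The counting intervals of Vsig4, Timd4 and Marco held 0, and those of Clec4f, Emr1, Cd5l and Csf1r did not. All 7 endothelial markers had changes below 0, from -0.60 for Lyve1 to -0.01 for Stab1, with a median of -0.09 and sums of 165 and 181 TPM. Of these, the intervals of Stab2, Stab1, Clec4g, Kdr and Oit3 held 0, and those of Lyve1 and Pecam1 did not. The 7 stellate cell markers had a median of -0.17, from -0.53 for Rgs5 to 0.17 for Lrat, and sums of 183 and 209 TPM. Of the 6 cholangiocyte markers, 4 had a mean of at least 1 TPM, from -0.59 for Epcam to 0.01 for Krt19, with a median of -0.12 and sums of 62.0 and 67.0 TPM.

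Of the 6 neutrophil markers, 5 were listed and 2 reached 1 TPM, S100a8 (0.01) and S100a9 (0.36), and the sums were 6.58 and 5.43 TPM. Of the 6 markers of exocrine pancreas, which borders the liver, only Cela1 reached 1 TPM, at 13.73 in KO against 14.18 in WT (-0.04). The other 5 were below 1 TPM, so pancreas tissue is not read from Cela1, and the sums were 14.3 and 14.6 TPM. All 3 kidney markers were below 1 TPM. The 5 red cell genes summed to 1412 and 1429 TPM, with a median of -0.14 from TPM but 0.044 from the authors' means, so that their direction turned with the unit. These held 1 gene lower by the fold (Hbb-bs, -0.89) and a highest change of 0.19 for Hba-a1. TPM here are posterior means, which stay above 0 without reads, so a value above 0 is not detection. Umod, a kidney marker, stood at 0.04 TPM in WT on 0 estimated reads. Apart from Hbb-bs, 0 markers passed either fold on the TPM + 1 scale. Epcam stood at 0.67 TPM in KO against 1.51 in WT (17 and 53 reads), a plain TPM ratio of 0.444. The part of cell composition in the levels of Mt1 and Mt2 was not tested.

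The genes averaging at least 10 TPM whose change was closest to that of Mt1 were Cyp2b10 (18.24 TPM in KO against 8.70 in WT, log2 change 0.99), Mup17 (176.71 and 92.03 TPM, 0.93) and Cyp7a1 (66.28 and 32.04 TPM, 1.03). The first and the third encode a cytochrome P450 of drug metabolism and the rate-limiting enzyme of bile acid synthesis, and Mup17 belongs to the major urinary proteins, a family of near-identical genes among which reads are hard to divide. Closest to Mt2 were Rps27 (161.35 and 61.03 TPM, 1.39), a ribosomal protein gene, Cyp26a1 (20.13 and 7.38 TPM, 1.33), which clears retinoic acid, and the small nucleolar RNA Snora43 (74.11 and 26.90 TPM, 1.43). Likeness here is the distance between log2 changes in 1 pair of libraries.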

How the data were processed

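Total RNA of pooled mouse liver was sequenced as 1 KO and 1 WT library (TruSeq Stranded Total RNA, paired-end). Per the labels and the study's methods, the authors used CASAVA 1.8.2 and RSEM 1.2.09 with Bowtie on mm10, and they deposited the posterior mean TPM of each gene, with sums of 1005325 (KO) and 994702 (WT). RSEM ran with a forward probability whose value is not given in the sources used here. A second table of 16318 genes, which the authors made with EBSeq, holds as a signal the authors' mean of each library, which is the estimated reads over a size factor. Its ratio or fold columns and its probabilities of equal or differential expression are the authors' own comparison and were not used. The metallothionein, transporter, response and marker lists and the 8 members were chosen with earlier results of these data known.

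TPM were compared as log2 with a pseudocount of 1 TPM and a minimum mean of 1 TPM. The folds of 1.4 and 0.6 are those of the study's lists of changed genes, set here on TPM and without the probability of differential expression that the study also required. No p-value was computed, since each genotype has 1 library. The deposited means fell on steps of 1.16 (KO) and 0.860 (WT), taken as 1 read. Within 0.02, 78.6% and 75.0% of values were whole reads (93.0% and 92.7% of values of up to 20 reads), so no count test was run. Intervals at 95% are exact Poisson for levels and Clopper-Pearson for ratios of means. The calculation of changes and intervals was run on simulated libraries with Poisson counts. That simulation took the size of 1 read as given, so it cannot show that this size is right. Genes were named by a fixed rule: all members, Pgrmc1, other genes of the metallothionein, Slc30 and Slc39 families averaging at least 1 TPM, the extremes of each list and its genes past the fold, and the 3 genes closest in change to Mt1 and to Mt2. Further genes in the text were picked with their values in view. Gene coordinates are those of RefSeq on GRCm38; windows before gene starts are from RefSeq (GRCm38.p6), and coding sequences and shared windows from GENCODE M21. A same-length share for the stretches up to the start codon was not computed. Software was Python 3.11.15, scipy 1.17.1 (intervals), pandas 2.3.3, numpy 2.4.6 and, for figures, matplotlib 3.10.9.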

Additional observations from a re-analysis of the deposited data

How the results depend on the processing

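The alternatives were a pseudocount of 0.1 TPM, the authors' means in place of TPM, scaling without the 50 most abundant genes, centring on the median change, a minimum mean of 10 TPM or no minimum, and other folds. Over the 4 that bear on single genes, the change stayed between 0.97 and 1.01 for Mt1, 1.39 and 1.46 for Mt2, 0.31 and 0.33 for Slc39a4 and -0.16 and -0.14 for Slc30a1, and no member changed sign. With folds of at least 2 and at most 0.5, 1 member was higher (Mt2), since Mt1 stood at 1.95. Of all genes, 141 were higher and 35 lower. These counts were 280 and 70 with a pseudocount of 0.1 TPM, 296 and 80 with the authors' means, 45 and 13 with folds of 2 and 0.5, and 62 and 17 with a minimum of 10 TPM. When falls were counted from 0.714, the inverse of the rise, 118 genes were lower, and 54.4% of calls were higher against 80.1% with 0.6. The hepatocyte median moved from -0.056 to -0.040 with the authors' means and to -0.043 after centring, and the red cell median from -0.14 to 0.044 with the authors' means. The cause was not tested. No paired analysis was possible because KO and WT were 1 pooled library each. Pooling leaves the spread between mice unmeasured, and depth limits the precision most for Mt2 and the low importers.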
